A study of Rattus norvegicus with 8 samples.

Results

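The subunits of the mitochondrial respiratory chain and of ATP synthase were followed in the blood of rats, through every probe set whose annotation names exactly 1 gene with a symbol of the families Nduf (subunits a, b, c, s and v), Sdh, Uqcr, Cyc1, Cox4 to Cox8 or Atp5. The rule used symbols and no measured values. It found 90 of the 31042 probe sets that are no controls, which name 81 of the 14217 genes measured: 36 genes of complex I, 4 of complex II, 8 of complex III, 17 of complex IV and 16 of complex V. For each gene the probe set with the highest mean over the arrays was used, and the other probe sets of 8 genes were set beside it. Another 7 probe sets carry a member's symbol together with that of a copy (Atp5mc1, Atp5mc2, Cox7a2, Cox5a, Uqcrb, Ndufs5 and Ndufa10) and were not used.

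The samples were 8 arrays of whole blood RNA from male Wistar rats, bought at 7 weeks of age and first kept on the normal diet CE-2. Then 4 arrays came from rats on a high-fat diet (Quick fat) for 8 weeks, and 4 from rats that for the same time ate it with 1% of mulberry leaf powder mixed in. Both groups therefore ate the high-fat diet, and both were fasted overnight before blood was taken on day 56. Each diet was given to 10 rats. The labels call the arrays biological replicates and do not say if an array holds RNA of 1 rat or of several, so the tests rest on the scatter among these samples, which may be technical in part. The normal-diet group of the design was not analysed here.

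The respiratory chain passes electrons from NADH (complex I) and succinate (complex II) through ubiquinone, complex III and cytochrome c to oxygen at complex IV, and the proton gradient built on the way drives ATP synthase, complex V. Each complex except complex II also holds subunits encoded in mitochondrial DNA, which the rule does not cover, while all members here are nuclear genes. In blood, mature red cells have lost their mitochondria, whereas reticulocytes, platelets and leukocytes keep them. Several markers of blood were bright on these arrays. Hbb, a hemoglobin chain, had a mean deposited value of 15.1 and Alas2, the first enzyme of erythroid heme synthesis, 13.9. Lyz2 of monocytes had 13.2, Pf4 of platelets 12.7, S100a9 of neutrophils and monocytes 11.1, and Cd3e of T cells 9.43. Others were lower: Ppbp of platelets 8.4, Cd79b of B cells 8.31, Nkg7 of natural killer cells 7.68 and Cd14 of monocytes 6.68. The median tested probe set was at 6.57, so Cd14 lay close to it. In such a mixture, fewer cells of a type and less RNA per cell cannot be told apart.

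The promoters of these genes are known for sites of the factors NRF1, GABP (which reads an ETS motif) and ERR, so 3 short motifs were searched on both strands of the RefSeq promoters (build GRCr8, 250 bases before to 50 after the start), which matched 72 of the 81 genes. The NRF1 core GCGCATGCG was found in 5 of the 72 promoters (6.94%) and in 1.66% of all 27457 promoters. The ETS motif CCGGAAGT was found in 8 (11.1%, against 4.01% of all) and the ERR motif TCAAGGTCA in 2 (2.78%, against 0.412%). No promoter held more than 1 of the 3 kinds, and 15 held any. Member promoters were also richer in CpG, with a median of 20 CpG per 300 bases against 7 over all promoters, so a motif that contains CG has more chances there. The NRF1 core reads almost the same on both strands, so most matches overlap one on the other strand. A match describes letters and is no evidence of binding. The windows of 60 bases below, all before the start site, show matches of the 3 kinds in members whose values are described further on, with the motif in capitals. Their positions are chr14:1464758-1464817 (plus strand) for Atp5me, chr3:79220688-79220747 (minus) for Atp5mc3, chr9:72073772-72073831 (minus) for Ndufs1 and chr1:213833648-213833707 (minus) for Cox8a. In the last 3 the motif lies on the opposite strand.
Atp5me, NRF1 core: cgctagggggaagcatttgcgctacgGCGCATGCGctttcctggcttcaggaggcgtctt
Atp5mc3, ERR: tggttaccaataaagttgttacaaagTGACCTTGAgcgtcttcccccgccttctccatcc
Ndufs1, ETS: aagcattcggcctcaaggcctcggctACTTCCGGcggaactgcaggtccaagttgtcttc
Cox8a, ETS: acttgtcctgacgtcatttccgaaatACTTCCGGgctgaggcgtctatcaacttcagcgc

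No subunit passed the test for a difference between the diets. Of the 90 member probe sets 0 passed limma's test at an adjusted p of 0.05 (lowest adjusted p = 0.9999), as did 0% of the 31038 probe sets tested across the whole array. At an unadjusted p under 0.05 the limma fit had 2 member genes with higher means in the mulberry group, Ndufv3 and Atp5mg, and 0 with lower means, where 2.43% of all genes were on the higher and 1.72% on the lower side (2.74% and 1.61% of all probe sets). A count of 2 among 81 genes is a share close to that background.

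The deposited values hardly vary between arrays: the SD of a member gene over the 8 arrays had a median of 7.46e-06 on the deposited log2 scale, against 5.78e-06 over all genes, and none reached 0.001. How these values came to vary so little is not known here, so a fold change cannot be given, and values and differences are given in SD units: a probe set's deviation from its mean over the 8 arrays, divided by its own SD over them. In these units 60 of the 81 member genes had a lower mean in the mulberry group on the deposited values, where 50.9% of all genes did, with a median difference of -0.33 against -0.019 over all genes. That direction depended on the scaling: after quantile normalization 12 were lower and 30 higher (5907 and 4653 of all genes), after median centring 4 were lower and 77 higher (611 and 13606 of all genes), and after centring each array on the median deviation in SD units 61 were lower and 20 higher (7827 and 6390 of all genes). Quantile normalization left 33 of the other 39 members with no spread at all, so they had no measured difference there. Many of those that moved, such as Ndufs1 and Sdhc (0.707 each) and Cox5a (-0.707), had exactly this size of difference. It arises when 1 array differs and all others are tied, so such signs rest on 1 array. Median centring moved nearly all genes upward, to a difference of 1.15 for the median probe set and a mean difference of 1.03 over all genes. It takes 1 constant per array off the log2 values, so in SD units the shift is large where the SD is small and small where it is large. Ndufa8, with the widest SD of all members, went only from -1.03 to -1. The counts and values after median centring, here and for each complex, carry this uneven shift. The 1.03 is thus no exact reference for a single gene or complex, and these values say nothing of the members alone.

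The arrays of a diet were far apart, and the subunits varied more among the arrays of a diet than between the diet means. Over the 81 genes the mean value (the score) was -0.0812, 0.146, -0.408 and 0.809 in high-fat replicates 1 to 4 and 0.295, -0.686, -0.562 and 0.487 in mulberry replicates 1 to 4. High-fat replicate 4 and mulberry replicate 4 were thus high, mulberry replicates 2 and 3 and high-fat replicate 3 low, and the diets overlapped. The diet means were 0.116 ± 0.515 (SD, n = 4) and -0.116 ± 0.594 (SD, n = 4), a difference of -0.233 that was smaller than the SD within either diet. It was -0.0137 without high-fat replicate 4, -0.0264 without mulberry replicate 2 and -0.0993 without mulberry replicate 3, and it was -0.422 and -0.425 without high-fat replicate 3 or mulberry replicate 4. After quantile normalization it turned to 0.145 (-0.0622 over all genes), and after median centring it was 1.07, close to the 1.03 of all genes.

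**Figure D1:**
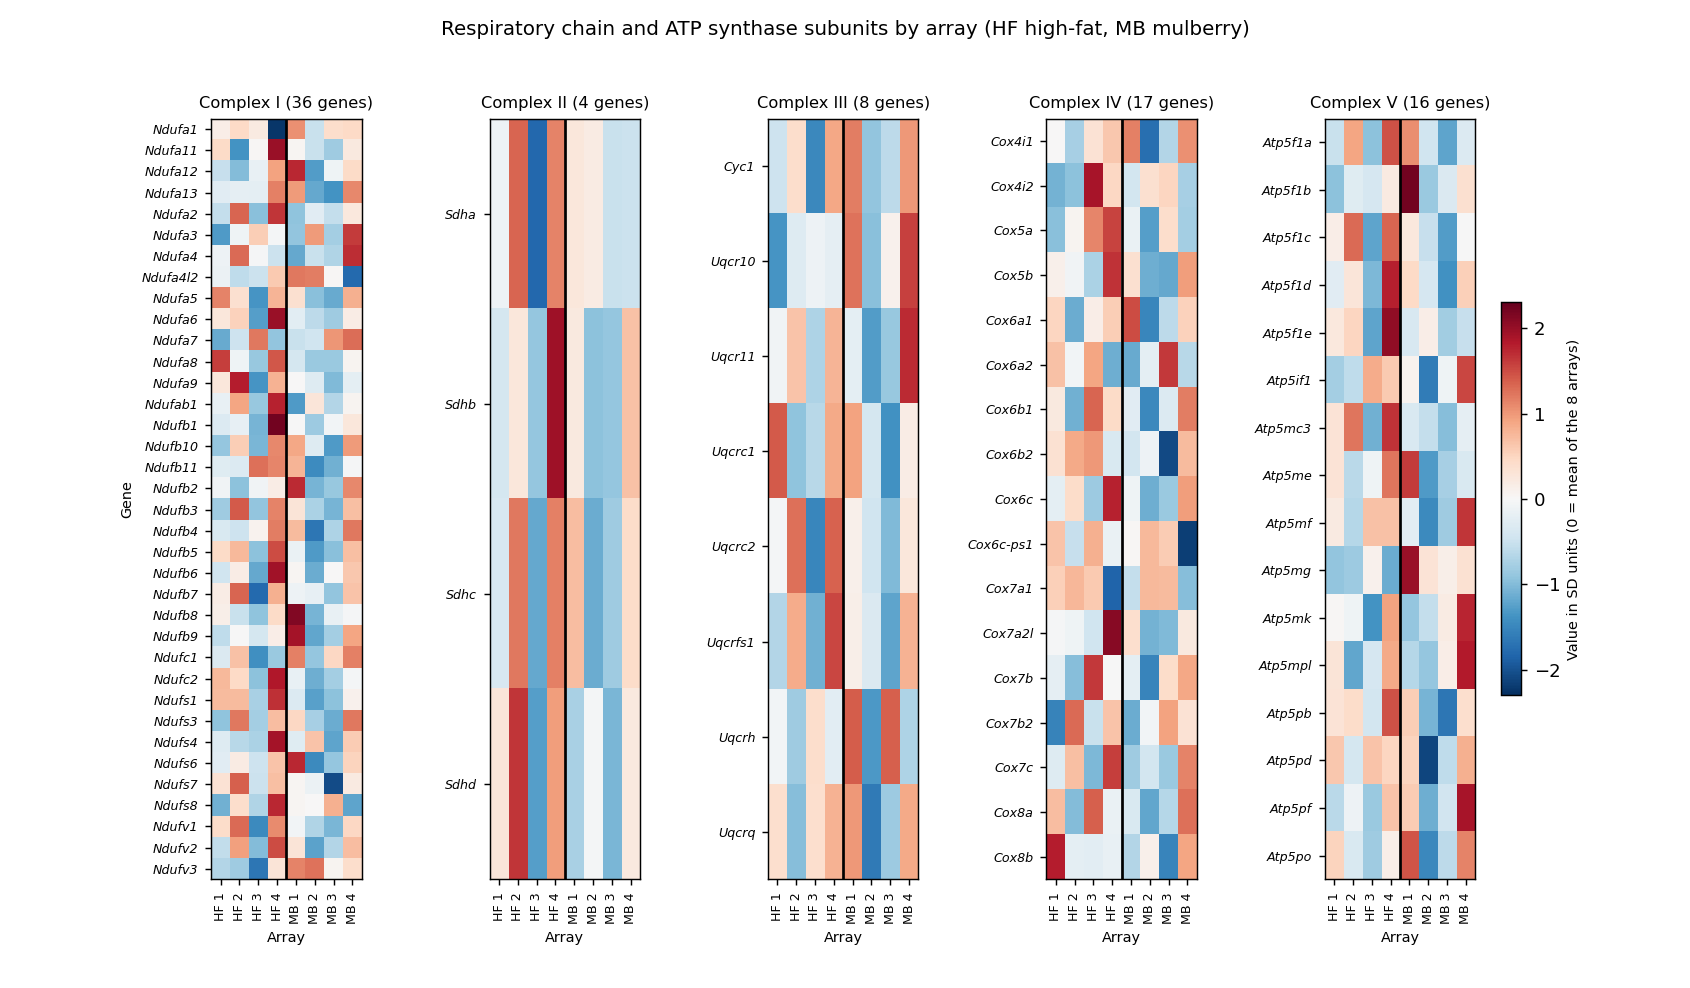
Each row is 1 member gene and each column 1 array (HF, high-fat; MB, mulberry); colour gives the value in SD units from the mean of the 8 arrays. Columns HF 4 and MB 4 are mostly red and MB 2 and MB 3 mostly blue in complexes I, III and V, with no common break at the line between the diets.

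Counting genes gave the same picture. In high-fat replicate 4, 66 of the 81 genes (81.5%) lay above their own mean of the 8 arrays, where 47.2% of all genes did. In mulberry replicate 4 it was 63 genes (77.8%, against 50.6%) and in mulberry replicate 1 48 genes (59.3%, against 47.4%). At the other end stood mulberry replicate 2 with 13 genes (16%, against 49.9%), mulberry replicate 3 with 19 (23.5%, against 50.1%) and high-fat replicate 3 with 23 (28.4%, against 47.1%). High-fat replicates 1 and 2 lay near the background, with 44.4% and 50.6% of members above their mean (46.2% and 54.5% of all genes). Each of the 5 complexes had most of its genes above the mean in both high-fat replicate 4 and mulberry replicate 4. Mulberry replicate 2 was the lowest array for 29 member genes (9.12% of all genes were lowest there) and high-fat replicate 4 the highest for 28 (17.2% of all genes).

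**Figure D2:**
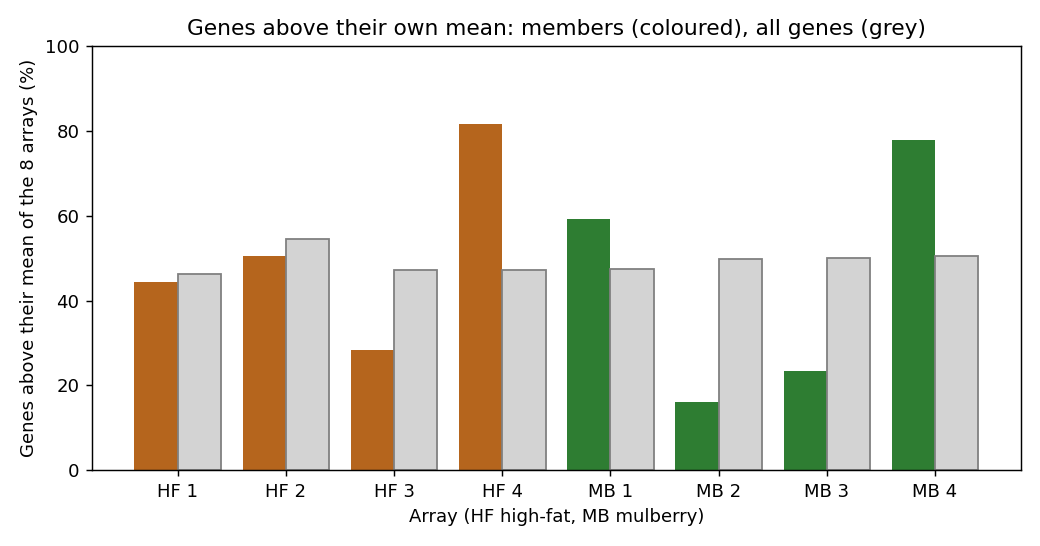
Bars give the percentage of genes that lie above their own mean of the 8 arrays, for the 81 member genes (coloured by diet: brown high-fat, green mulberry) and for all genes (grey). Members range from 16% in mulberry replicate 2 to 81.5% in high-fat replicate 4, while all genes stay between 46.2% and 54.5%.

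Pairs of member genes correlated over the 8 arrays by 0.271 in the mean, against 0.00327 for pairs of all genes. The arrays are shared by all pairs, so any trait of an array, diet or technical, enters this value. Within complexes the mean was 0.329 for complex I, 0.727 for complex II, 0.357 for complex III, 0.0905 for complex IV and 0.383 for complex V. Pairs of all genes were not matched for brightness, while 76 member genes lay above the median deposited value of all tested probe sets. Marker lists of blood cells had mean correlations of 0.632 (natural killer cells), 0.628 (B cells), 0.612 (platelets), 0.486 (monocytes), 0.397 (neutrophils), 0.237 (erythroid) and 0.07 (T cells). Such shared movement was thus not particular to the members. Scores of other lists moved between these arrays too. In high-fat replicate 4 the 17 measured monocyte markers scored 1.53 and the 18 natural killer cell markers 1.92, both the highest of the 8 arrays, and the 19 platelet markers scored -1.24, their lowest. In mulberry replicate 4 platelet markers scored 1.63, their highest. The ranges of the marker scores were -0.338 to 1.53 in high-fat and -0.808 to 0.341 in mulberry arrays for monocytes, -0.309 to 1.92 and -0.615 to 0.0725 for natural killer cells, -1.24 to 0.159 and -0.274 to 1.63 for platelets, and -0.482 to 0.879 and -0.593 to 0.431 for the 22 erythroid markers. The neutrophil list (12 measured) ranged from -1.34 to 0.524 and from -0.345 to 0.735, the T cell list (18) from -0.274 to 0.655 and from -0.343 to 0.268, and the B cell list (12) from -0.769 to 1.18 and from -0.934 to 0.596. By diet, 18 of 19 platelet markers had higher and 17 of 18 natural killer cell markers lower means with mulberry on the deposited values. After median centring 18 platelet markers were higher and 13 natural killer cell markers lower, where 13606 of 14217 genes were higher. The mean differences there were 0.879 for platelet and -0.154 for natural killer cell markers, against 1.03 over all genes. After quantile normalization 10 platelet markers were higher and 2 lower, and 16 natural killer cell markers were lower and 1 higher (4653 higher and 5907 lower of all genes). The 18 hybridization controls, bacterial transcripts added in fixed amounts, all had higher means with mulberry (score difference 1.12), and so did 24 of the 27 poly-A controls (0.843). The hybridization controls scored lowest in high-fat replicates 1 and 4 (-1.44 and -1.07) and highest in mulberry replicate 1 (1.3). The part of cell makeup and of these controls in the members' values was not tested beyond the alternatives given at the end.

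Complex I, the NADH dehydrogenase, had lower means with mulberry in 25 of its 36 genes on the deposited values (18 higher and 4 lower after quantile normalization, 34 higher after median centring). The complex I score averaged 0.102 ± 0.654 over the 4 high-fat arrays and -0.102 ± 0.596 over the 4 mulberry arrays (SD). The difference of -0.205 was 0.0567 without high-fat replicate 4, -0.0268 without mulberry replicate 2, -0.0393 without mulberry replicate 3, -0.463 without high-fat replicate 3, -0.341 without mulberry replicate 1 and -0.375 without mulberry replicate 4. All 6 measured core subunits, which are conserved from bacteria, were among the lower ones (Ndufs1, Ndufs3, Ndufs7, Ndufs8, Ndufv1 and Ndufv2). Most of them, though not Ndufs3, carry the flavin or iron-sulfur clusters. Their score was -0.183, 0.993, -0.862 and 1.23 in high-fat replicates 1 to 4 and 0.0857, -0.676, -0.842 and 0.25 in mulberry replicates 1 to 4. High-fat replicates 2 and 4 were high and high-fat replicate 3 was the lowest of all arrays, so the high-fat arrays alone spanned the whole range, and the difference of -0.592 turned to 0.362 after quantile normalization and 0.991 after median centring.

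Ndufs1, the largest core subunit, stood at 0.729, 0.731, -0.744 and 1.69 in the high-fat arrays and at -0.306, -1.25, -0.941 and 0.0926 in the mulberry arrays. The diets overlapped through high-fat replicate 3, and the difference was -1.2 ± 0.551 (SE, limma unadjusted p = 0.067). Ndufc2, an accessory subunit of the membrane arm, had values of 0.754, 0.457, -0.945 and 1.85 against -0.165, -1.12, -0.791 and -0.0372, and differed by -1.06 ± 0.593. Its pattern over the arrays was that of Ndufs1. Ndufa8, an accessory subunit with cysteine motifs, differed by -1.03 ± 0.599, with high-fat replicates 1 and 4 at 1.6 and 1.44 and all other arrays between -0.864 and 0.0544. After median centring the Ndufs1 difference was 0.478. Ndufa8, whose SD of 0.000501 was the widest of all members, had -1 there, but -0.0509 with the hybridization control score and -0.414 with the poly-A control score as a covariate.

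Ndufv3, a small flavoprotein subunit, was 1 of the 2 genes on the higher side. It stood at -0.673, -0.823, -1.66 and 0.293 in the high-fat arrays and at 1.14, 1.25, 0.0696 and 0.406 in the mulberry arrays. High-fat replicate 4 alone reached into the mulberry range, and the difference was 1.43 ± 0.599 (SE, limma unadjusted p = 0.0492, adjusted p = 0.9999). The other probe set of Ndufv3 had the smallest SD of all members (6.48e-08) and a difference of 0.054. Its SDs within the diets were 0.721 (high-fat) and 1.35 (mulberry). The limma fit draws each variance toward a value shared by all probe sets, and its SE here was 10.4. Over the arrays the 2 probe sets correlated by 0.118 and lay on the same side of the mean in only 2 of 8 arrays. With an SE this wide, the second probe set cannot show whether it shares the difference of the first.

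3 genes named with complex I have roles of their own. Ndufab1, the mitochondrial acyl carrier protein, which also serves lipoate synthesis and iron-sulfur assembly, differed by -0.817 ± 0.647. Ndufa4, first assigned to complex I and now known as a subunit of complex IV, differed by -0.342 ± 0.706. Its paralog Ndufa4l2, a hypoxia-induced protein, differed by 0.301 ± 0.729. In each of the 3 the difference was within 1.5 SE, and mulberry replicate 4 was the highest array for Ndufa4 (1.7) and the lowest for Ndufa4l2 (-1.79).

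Complex II, succinate dehydrogenase, is the one complex that also works in the citric acid cycle. All 4 genes had lower means with mulberry on the deposited values (2 higher and none lower after quantile normalization, 4 higher after median centring). The score was -0.154, 1.11, -1.28 and 1.31 in the high-fat and 0.118, -0.484, -0.817 and 0.202 in the mulberry arrays, so the 4 mulberry arrays lay inside the high-fat range. Sdha, the flavoprotein, differed by -0.28 ± 0.71, and Sdhb, the iron-sulfur subunit, by -0.467 ± 0.695. The membrane anchors Sdhc and Sdhd differed by -0.409 ± 0.701 and -0.807 ± 0.665. Leaving out 1 array moved Sdha between -1.26 (without high-fat replicate 3) and 0.131 (without high-fat replicate 2), and Sdhb between -0.832 (without high-fat replicate 3) and 0.161 (without high-fat replicate 4). Both probe sets of Sdhd had nearly the same difference (-0.807 and -0.814), but they correlated by 0.54 and lay on the same side of the mean in 5 of 8 arrays. The score difference of -0.491 changed to -0.125 without high-fat replicate 4, -0.215 without high-fat replicate 2, -0.3 without mulberry replicate 3 and -1.12 without high-fat replicate 3.

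Complex III, the cytochrome bc1 complex, had lower means in 5 of 8 genes (3 higher and 1 lower after quantile normalization, 8 higher after median centring), and its score difference of -0.02 was small beside its SDs of 0.544 and 0.851 (n = 4 each). It took either sign when 1 array was left out, from -0.269 without mulberry replicate 4 to 0.307 without mulberry replicate 2. Cyc1, the heme protein cytochrome c1, stood at -0.478, 0.406, -1.48 and 0.893 in the high-fat and 1.18, -0.914, -0.609 and 1 in the mulberry arrays. Each diet held both high and low arrays, and the difference was 0.331 ± 0.707. The core proteins Uqcrc1 and Uqcrc2 differed by -0.362 ± 0.718 and -0.543 ± 0.688, and the second probe set of Uqcrc2 lay on the same side of its mean as the first in all 8 arrays. Uqcr10, a small subunit, had the widest difference of the complex, 0.983 ± 0.654, with high-fat replicate 1 at -1.36 far below the other high-fat arrays (-0.292 to -0.111).

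**Figure D3:**
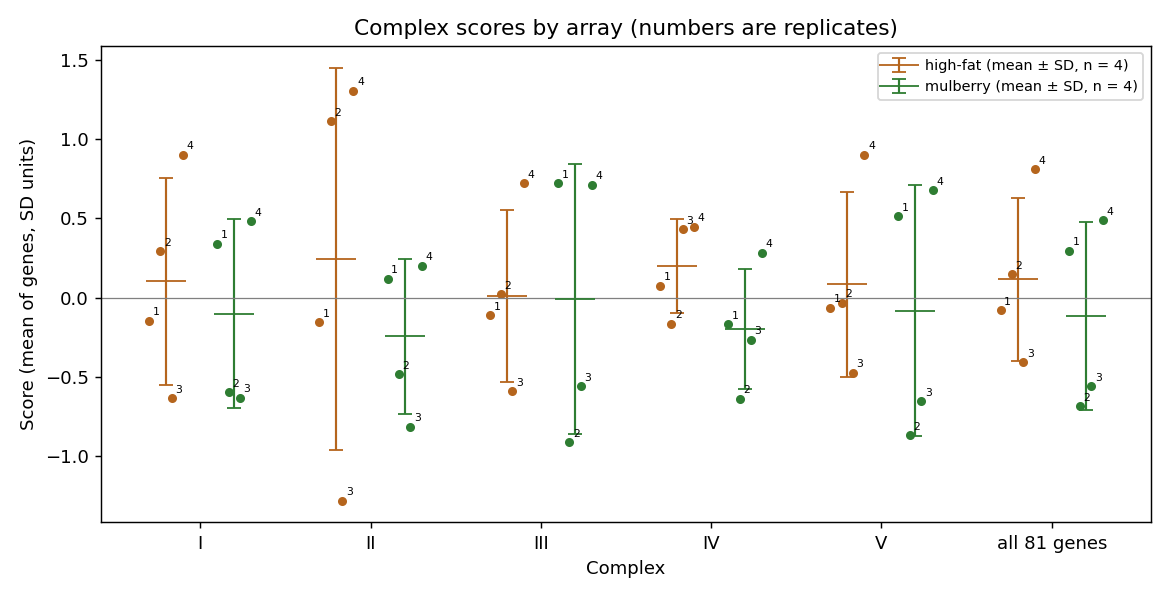
Points are the 8 arrays (the number is the replicate), and the horizontal ticks and bars give mean ± SD of 4 arrays, for the score of each complex in SD units (brown high-fat, green mulberry). The diets overlap in every complex, and high-fat replicate 4 is the highest array of its diet throughout.

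Complex IV, cytochrome c oxidase, had lower means in 16 of 17 genes on the deposited values and 1 higher (6 lower and 2 higher after quantile normalization, 17 higher after median centring). Its score was 0.0739, -0.165, 0.432 and 0.449 in the high-fat arrays and -0.167, -0.638, -0.268 and 0.283 in the mulberry arrays, with means of 0.197 ± 0.297 and -0.197 ± 0.379 (SD, n = 4 each). The arrays of the diets overlapped, and the difference was -0.395 (-0.156 after quantile normalization and 1.11 after median centring). Without mulberry replicate 2 it was -0.226. In the limma fit 0 of the 17 had an unadjusted p below 0.05. The smallest belonged to Cox6b2, a testis isoform, at -0.936 ± 0.651 (limma unadjusted p = 0.195).

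Several subunits of complex IV exist as an isoform made in most tissues and one made in particular tissues, such as heart and skeletal muscle (Cox6a2, Cox7a1, Cox8b), lung (Cox4i2) or testis (Cox6b2, Cox7b2). The 5 measured ubiquitous forms were bright, with mean deposited values of 10 (Cox4i1), 11.3 (Cox6a1), 10.6 (Cox6b1), 11.8 (Cox7b) and 11.4 (Cox8a). The 6 tissue forms had means from 5.89 (Cox6b2) to 6.97 (Cox7a1), and all but Cox7a1 lay below the median of 6.57 of all tested probe sets. Probe sets differ in how well they bind, so these values are no ratio of the transcripts.

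The ubiquitous isoforms shared much of their pattern over the arrays. Cox6b1 stood at 0.231, -1.11, 1.34 and 0.434 in the high-fat arrays and at -0.267, -1.48, -0.311 and 1.17 in the mulberry arrays. Cox8a stood at 0.717, -1, 1.38 and -0.151 and at -0.348, -1.19, -0.657 and 1.26, and Cox7b at -0.211, -0.98, 1.63 and -0.0091 and at -0.224, -1.52, 0.418 and 0.895. In these 3, high-fat replicate 3 was the highest array. Cox4i1 and Cox6a1 were instead highest in mulberry replicate 1 (1.17 and 1.5), with high-fat replicate 3 at 0.334 and 0.147. In all 5, high-fat replicate 2 and mulberry replicate 2 were the lowest arrays of their diets. Over the 5 forms the score was 0.966 in high-fat replicate 3, where the core subunits of complex I scored -0.862 and complex II -1.28, and -1 in high-fat replicate 2, where these scored 0.993 and 1.11. The members thus did not follow a single pattern in the high-fat arrays, whereas mulberry replicates 2 and 3 were low in all 3 groups. The mean pairwise correlation was 0.733 among the 5 ubiquitous forms and 0.000658 among the 6 tissue forms.

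**Figure D4:**
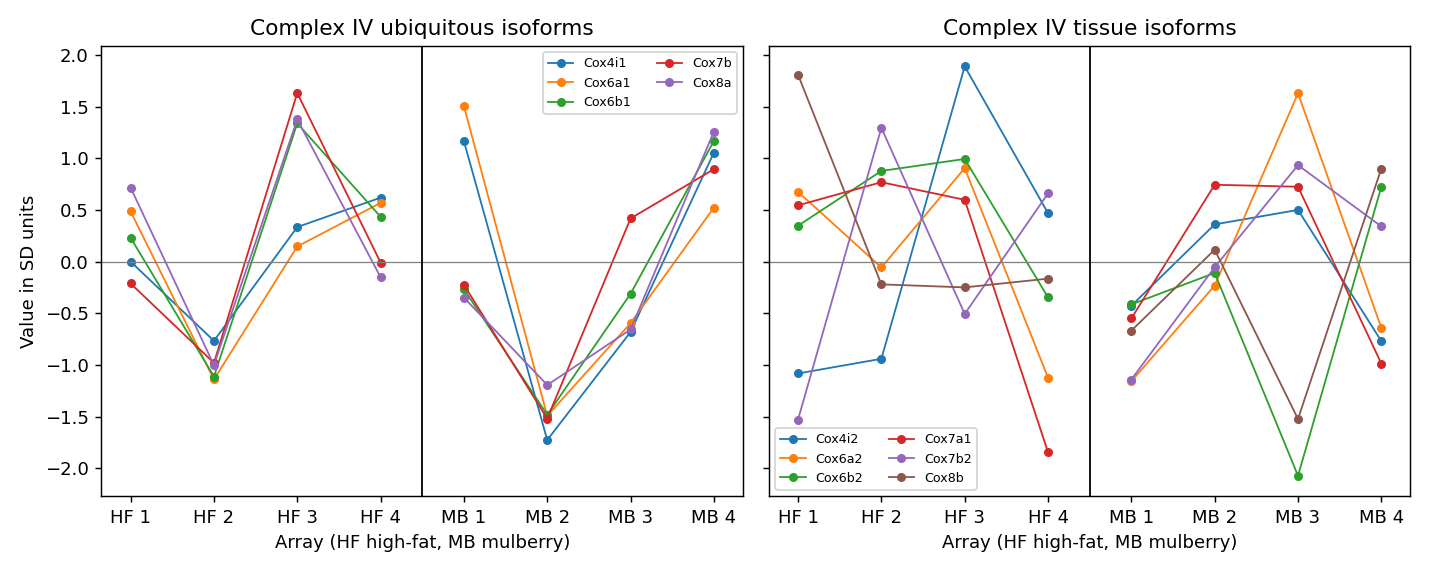
Values in SD units of 5 ubiquitous (left) and 6 tissue isoforms (right) of complex IV in the 8 arrays; lines join the points of 1 gene within a diet, and replicates have no order. The ubiquitous forms run together, with mulberry replicate 2 lowest in all 5, and the tissue forms scatter.

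None of the isoforms differed between the diets by more than 1.5 SE. Cox4i1 differed by -0.0936 ± 0.719 and Cox4i2 by -0.168 ± 0.846. Cox6a1 and Cox6a2 differed by -0.0305 ± 0.718 and -0.2 ± 0.753, and Cox6b1 by -0.446 ± 0.7. Cox7a1 differed by -0.0337 ± 0.895, Cox7b and Cox7b2 by -0.215 ± 0.717 and 0.0397 ± 0.725, and Cox8a and Cox8b by -0.47 ± 0.702 and -0.587 ± 0.682. Cox5a, a nuclear subunit on the matrix side, differed by -0.895 ± 0.811, on a dim probe set with a mean of 6.68, where the median of all tested probe sets was 6.57. Cox7a2l, which helps to join complexes III and IV into supercomplexes, differed by -0.751 ± 0.658, with high-fat replicate 4 at 2.09 and the other high-fat arrays between -0.46 and -0.0325. Cox6c-ps1, annotated as a pseudogene of Cox6c, is 1 of the 17 genes and differed by -0.404.

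Complex V, ATP synthase, had lower means in 10 and higher means in 6 of 16 genes on the deposited values (after quantile normalization 1 lower and 5 higher, with median centring 2 lower and 14 higher). The complex V score averaged 0.0828 ± 0.582 over the 4 high-fat arrays and -0.0828 ± 0.792 over the 4 mulberry arrays (SD). The difference of -0.166 turned to 0.0808 without high-fat replicate 4 and 0.11 without mulberry replicate 2, was 0.0004 without mulberry replicate 3, and was -0.37, -0.323 and -0.445 without high-fat replicate 3, mulberry replicate 1 or mulberry replicate 4. The F1 head, where ATP is made, scored -0.263, 0.541, -0.961 and 1.37 in the high-fat and 0.718, -0.413, -1 and 0.0121 in the mulberry arrays. The peripheral stalk, which holds the head still, scored 0.211, -0.11, -0.361 and 0.691 and then 0.78, -1.45, -0.823 and 1.06. The stalk was lowest in mulberry replicate 2 and the head in mulberry replicate 3, and in neither did the diets separate.

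Atp5mg, subunit g of the membrane part, was the only member gene whose arrays did not overlap between the diets. It stood at -0.908, -0.835, 0.105 and -1.14 in the high-fat arrays and at 1.98, 0.319, 0.137 and 0.345 in the mulberry arrays. High-fat replicate 3 and mulberry replicate 3 nearly met, and mulberry replicate 1 lay far above the other mulberry arrays. The difference was 1.39 ± 0.489 (SE, limma unadjusted p = 0.0257, adjusted p = 0.9999), and it was 0.792 with the hybridization and 0.777 with the poly-A control score as a covariate. After quantile normalization its probe set had no spread and no value. Of all genes 1.46% had mulberry above high-fat without overlap (1.6% of all probe sets), and 1 of 81 is close to that. Among members 0 had mulberry below high-fat without overlap, where 0.957% of all genes and 0.915% of all probe sets did. RefSeq lists 8 numbered pseudogenes and 3 like copies of Atp5mg, and how far its probe set reads them is not known here.

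Atp5mc3, a gene for subunit c of the rotor ring, had values of 0.311, 1.22, -1.11 and 1.66 in the high-fat and -0.354, -0.547, -0.983 and -0.202 in the mulberry arrays. As in Ndufs1, high-fat replicate 3 was low and the other high-fat arrays stood above all mulberry arrays, and the difference was -1.04 ± 0.603. Atp5pb, subunit b of the stalk, differed by -0.892 ± 0.632, and Atp5f1c, the central gamma subunit, by -0.791 ± 0.65. Atp5if1, the inhibitor that stops the enzyme from splitting ATP, differed by -0.0422 ± 0.718, while its other 2 probe sets differed by 0.971 and -0.603. The probe sets of Ndufa7 (0.666 and -0.895) also had opposite signs, and those of Ndufa9, Atp5me and Atp5po had equal signs. Over the arrays, however, the pair of Atp5me correlated by -0.559 and that of Atp5po by -0.401, each on the same side of the mean in only 3 of 8 arrays. The pair of Ndufa9 correlated by 0.0588, on the same side in 5 of 8.

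**Figure D5:**
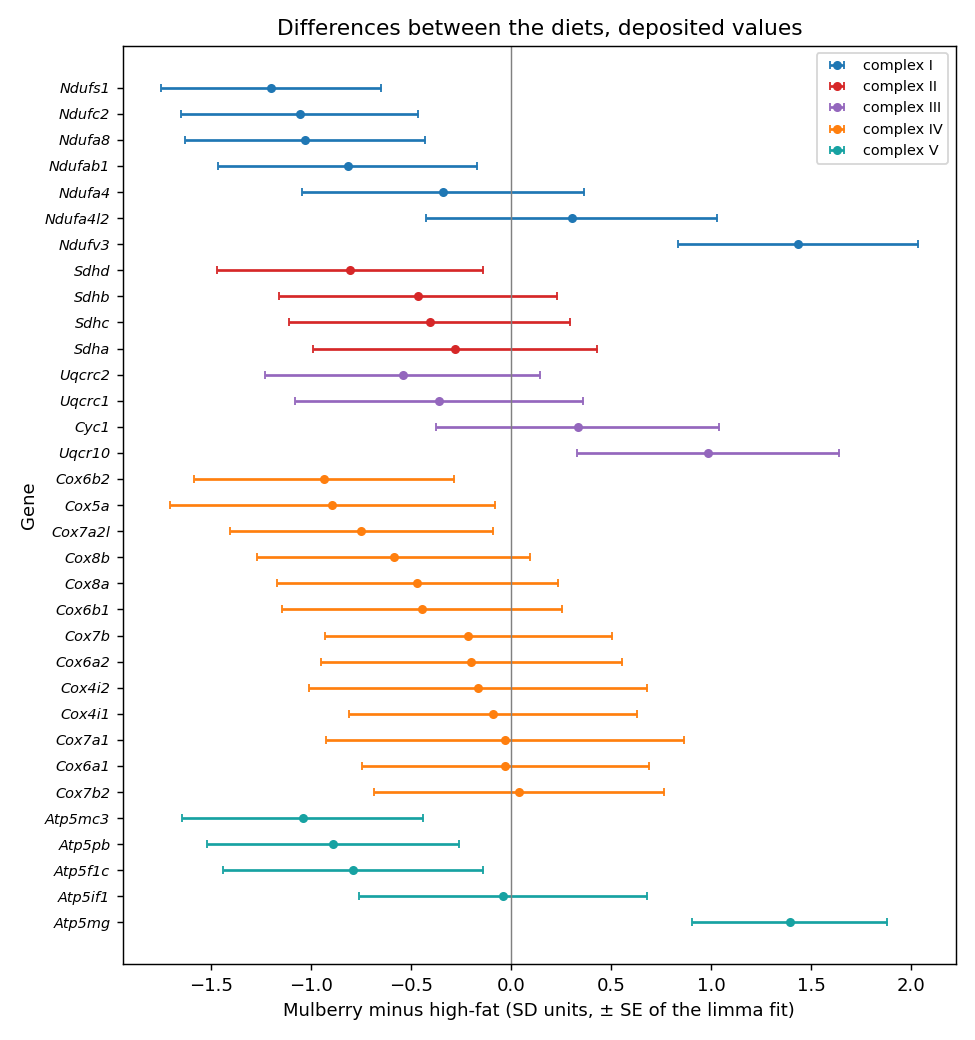
Points are the difference mulberry minus high-fat in SD units on the deposited values and bars ± 1 SE of the limma fit (4 arrays per diet), for the 33 named genes. None passed the threshold; Ndufv3 and Atp5mg lie highest at 1.43 and 1.39. Signs depend on the scaling, and median centring moves nearly all genes of the array upward.

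Of the 8 arrays, leaving out high-fat replicate 3 changed the count of lower members. That array had the lowest member score of its diet (-0.408), so leaving it out by itself raises the high-fat score. Without it, 10 member probe sets (11.1%) had lower means with an unadjusted p under 0.05 in the limma fit, against 3.11% of all probe sets, and 0 passed the adjusted threshold. The 10 were read on the same arrays and are not independent of each other. They were Atp5mc3 (-1.64 ± 0.389, SE, limma adjusted p = 0.666), Ndufs1, Ndufc2, Ndufa8, Ndufa9, Sdhd, Atp5f1c, Ndufa6, Ndufv1 and Atp5f1e, named after their values were seen. With any other array left out the number was 0.

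Genes that build, feed or regulate the chain were taken from lists that are not part of the rule, and none of them passed the limma test. Of 54 measured assembly factors 33 had lower and 21 higher means (median difference -0.337), of 17 citric acid cycle genes 15 and 2 (-0.488), of 21 carriers and electron carriers 14 and 7 (-0.358), and of 22 genes of mitochondrial gene expression and biogenesis 14 and 8 (-0.149), where the median of all genes was -0.019. After quantile normalization the list means of the citric acid cycle and biogenesis turned positive (0.153 and 0.0973), and after median centring all 4 were at 0.8 to 1.13, around the 1.03 of all genes. The citric acid cycle score was -0.165, 0.814, -0.824 and 1.03 in the high-fat and 0.333, -0.686, -0.769 and 0.266 in the mulberry arrays. High and low arrays were those of the complex I core subunits and complex II. Assembly factors, by contrast, had a mean pairwise correlation of only 0.079, against 0.495 for the citric acid cycle.

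The 2 genes of smallest p in each list were the following. Uqcc2, an assembly factor of complex III, differed by -1.35 ± 0.501 (limma unadjusted p = 0.0314, adjusted p = 0.9999), and Ndufaf1, an assembly factor of complex I, by -1.41 ± 0.595. Sucla2, a subunit of succinyl-CoA ligase, differed by -1.45 ± 0.458 and Suclg2 of the same enzyme by -1.07 ± 0.59. Slc25a3, the mitochondrial phosphate carrier, differed by -1.15 ± 0.567 and Slc25a5, an ADP/ATP carrier, by -1.05 ± 0.593. Nrf1, the factor whose core motif was searched above, had a higher mean by 1.58 ± 0.629 (limma unadjusted p = 0.0408, adjusted p = 0.9999), and Tfb1m, which methylates mitochondrial ribosomal RNA, a difference of -1.32 ± 0.539.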

How the data were processed

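Values were taken as deposited: the authors' table gives 1 value per probe set and array, read as log2 because each array spans 5.17 to 15.3 without zeros. How probes were summarised and arrays scaled is not given in the sources used here. Per the labels, 200 ng of total RNA was labelled with biotin. All 57 manufacturer controls were left out, and 4 probe sets without spread had no test, leaving 31038. Diets were compared with limma's moderated linear model (version 3.58.1, under R 4.3.3; two-sided, Benjamini-Hochberg over all probe sets, threshold 0.05); scores, motifs and counts used Python 3.11.15. Steps were tested on simulated data with 200 moved probe sets. Gene names came from the platform annotation, and all 81 members matched RefSeq (GRCr8) by gene number. Named were the 4 genes of smallest p per complex, genes without overlap, isoforms, and 2 genes per other list. Members and lists were chosen with earlier results of these data known. Alternatives were 3 scalings, a brightness filter, a replicate block, other variance models, control or cell scores as covariates, other probe set choices and leaving out each array. The small number of arrays limits the precision.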

Additional observations from a re-analysis of the deposited data

Results flagged for a closer look

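In a group of 4 arrays, 1 array was taken as standing apart when its gap to the nearest other array, as a share of the range, exceeded Dixon's critical value for 4 samples, which chance gives in about 1 in 20 groups. Of 92 groups looked at (named genes and scores, 4 arrays of 1 diet each), 5 met this. Uqcr10 was lowest in high-fat replicate 1 (-1.36 SD units). Cox7a2l was highest in high-fat replicate 4 (2.09). Cox8b was highest in high-fat replicate 1 (1.81). Atp5mg was highest in mulberry replicate 1 (1.98). Cox7a1 was lowest in high-fat replicate 4 (-1.84).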

How the results depend on the processing

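No member passed the adjusted threshold under any alternative, and over all probe sets the count was 0 except 3 after quantile normalization. Score differences after median centring were 1.07 over all members, 1.08, 0.763, 1.2, 1.11 and 1.05 for complexes I to V, against 1.03 over all genes. On the deposited values with 1 array left out, the score difference of all members ranged from -0.425 to -0.0137. For complexes I to V it then ranged from -0.463 to 0.0567, -1.12 to -0.125, -0.269 to 0.307, -0.543 to -0.226 and -0.445 to 0.11. Quantile normalization left only 57 of the 90 member probe sets with spread to test. Member probe sets with an unadjusted p under 0.05 on the lower side numbered 2 of these 57 after quantile normalization (0.717% of all probe sets tested there). They numbered 2 with a replicate block (2.57%), 1 with the platelet score (1.59%) and 0 to 10 with 1 array left out (1.4% to 3.11%). On the higher side, against 2, they numbered 9 after median centring (7.94% of all probe sets), 0 after quantile normalization (1.02%), with either kind of control (1.33% and 1.69%) or with trend and robust variance (2.75%), 1 after centring in SD units, with a replicate block, a cell score, brighter probe sets or without probe sets matching several transcripts (2.29% to 3%), and 0 to 2 with 1 array left out (2.11% to 3.5%). Other choices of the probe set per gene were run for scores only. With the hybridization control score as a covariate, the members' difference was -0.0449 and complexes III and V turned to 0.174 and 0.111. Of the 33 named genes, 24 changed sign after median centring, which moved nearly all genes upward, and 1 after centring in SD units. With covariates, 10 changed sign with the hybridization controls, 0 with the poly-A controls, 5 with the erythroid and 3 with the platelet score. With 1 array left out, 3 to 9 changed sign (9 without high-fat replicate 3). After quantile normalization 10 of the 20 that kept any spread did, and 13 had none. Ndufs1, Sdhc, Atp5f1c and Ndufab1 changed sign there through 1 array that stood apart from tied values. The block cannot move a difference in this balanced design, only its error. Same-numbered arrays deviated together in 2 of 4 pairs (correlations -0.0462, -0.0505, 0.246 and 0.163), and 4 of 8 arrays correlated best with their own number. With so few arrays these values cannot decide whether the numbers pair the samples. The cause of these changes was not tested.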

Other observations

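RefSeq lists numbered pseudogenes or like copies for 41 of the 81 member genes, 104 entries in all. Atp5mg has 8 numbered pseudogenes and 3 like copies, and Ndufb4 has 7 and 4. The 5 members with the NRF1 core in the promoter (Atp5me, Atp5mg, Atp5po, Ndufa11 and Uqcrc1) scored 0.354, -0.822, -0.286 and 0.618 in the high-fat and 1.2, -0.678, -0.686 and 0.301 in the mulberry arrays. The 67 without it scored -0.138, 0.262, -0.461 and 0.836 and then 0.208, -0.661, -0.568 and 0.521.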
